A study of Schizosaccharomyces pombe with 6 samples.

Results

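Results are given for 9 meiotic genes of fission yeast, Schizosaccharomyces pombe, across 6 chromatin arrays: mei4, ssm4, num1 (also called mcp5), mcp7, rec8, spo5, crs1, mug8 and mug10. These 9 of 5113 protein-coding genes were taken by name as targets of the RNA-binding protein Mmi1. Each was read through the probes inside its annotated span and through those within 1 kb and from 1 to 5 kb on each side. All 9 had at least 4 probes inside the gene and passed the minimum of 3 probes.

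In the RefSeq assembly ASM294v3 the genes lie apart from each other on chromosomes I and II. On chromosome I are mcp7 (578450 to 579948, + strand), mug10 (1370160 to 1371501, + strand), mug8 (2445242 to 2447714, + strand) and ssm4 (4534674 to 4536736, - strand). On chromosome II are num1 (898056 to 901363, + strand), mei4 (1473068 to 1475285, + strand), spo5 (2536150 to 2538254, + strand), rec8 (2568938 to 2570993, + strand) and crs1 (3452323 to 3453516, - strand). The closest pair, spo5 and rec8, are still farther apart than the 5 kb read around each gene.

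Meiotic genes are kept off in growing fission yeast partly at the level of RNA. Mmi1, a YTH-domain protein, binds short hexamers in their transcripts, a region called the determinant of selective removal, and hands the RNA to the nuclear exosome through the Red1 and Mtl1 complex. At some of these genes the same machinery also brings in Clr4, the histone H3 lysine 9 methyltransferase, and a small island of heterochromatin forms over the gene. Swi6, the HP1 protein, binds methylated H3K9, and Pds5 regulates how cohesin, the ring around sister chromatids, binds chromosomes.

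Chromatin immunoprecipitation (ChIP) was done for H3K9me2 in wild type (1 array) and pds5Δ (1 array), and with an antibody against GFP for Pds5-GFP in wild type (a pair of arrays) and in the swi6Δ and clr4Δ deletions (1 array for each). Per the labels, all cells were in log phase in rich medium at 30 °C and were fixed with 3% paraformaldehyde. For the Pds5 ChIPs only, a hold at 18 °C for 2 h came before fixation and DMA was added as a cross-linker, so levels of the H3K9me2 and Pds5-GFP arrays are not set against each other as amounts. The series title gives the question, what cohesin does to heterochromatin when Pds5 is missing. Every value below is a log2 ratio of the ChIP to the whole-cell extract channel with the array's median set to 0, so that 0 is the typical probe. A gene's level is the mean over its probes. No ChIP of an untagged strain is used here, so the part of a GFP ratio that does not need the tag was not measured.

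Precision is limited by the number of arrays: 1 per genotype for H3K9me2, and for Pds5-GFP a wild-type pair whose labels do not say whether the cultures were separate. P-values therefore measure the spread between those arrays, which may be technical. Across probes Pearson's r was 0.961 within that pair and 0.894 between both H3K9me2 arrays, as a description. Per the labels the DNA fragments were longer than the 300 bp between tiles. Neighbouring probes therefore read shared fragments of the same ChIP, and the counts of probes given below are not counts of separate observations. Extract signal over the coding probes of pds5, swi6 and clr4 lay at -6.29, -6.46 and -6.37 on the array of the respective deletion and between -0.35 and 0.30 on the others. Both H3K9me2 arrays shared a slide, and so did the second wild-type Pds5-GFP array and that of swi6Δ. The clr4Δ array was alone on its slide, so the clr4 deletion and the slide cannot be told apart.

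The coding sequences of the 9 genes share the hexamer that Mmi1 is known to bind, UNAAAC in RNA, or TNAAAC in DNA, of which TTAAAC is one form. Such hexamers are part of how Mmi1 targets are recognised, so these counts describe the genes and test nothing. On the sense strand TNAAAC occurred 3.52 times per kb of coding sequence in spo5, the lowest member, and 7.90 times per kb in mcp7, the highest, against 1.69 per kb over all protein-coding genes. On the antisense strand, which the transcript does not carry, the members ranged from 0.46 per kb in mug8 to 4.43 per kb in crs1. Each member held more on its sense than on its antisense strand. The 4 genes with H3K9me2 in wild type (below) had 6.19 to 7.90 per kb and the 5 without it 3.52 to 7.75 per kb, so the ranges overlap.

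To show how the hexamers lie, the 120-base stretch of 1 coding exon with the highest number of them is printed for 5 members, from the RefSeq assembly ASM294v3, 5′ to 3′ on the coding strand with TNAAAC in capitals. The stretches of mei4, num1 and mcp7 come from genes with H3K9me2, and those of crs1 and mug8 from genes without it.
mei4: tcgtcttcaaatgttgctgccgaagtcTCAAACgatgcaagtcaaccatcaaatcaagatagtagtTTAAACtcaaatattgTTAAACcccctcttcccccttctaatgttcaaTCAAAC
num1: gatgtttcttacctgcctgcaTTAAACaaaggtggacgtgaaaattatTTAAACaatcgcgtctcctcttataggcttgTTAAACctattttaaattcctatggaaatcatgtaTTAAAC
mcp7: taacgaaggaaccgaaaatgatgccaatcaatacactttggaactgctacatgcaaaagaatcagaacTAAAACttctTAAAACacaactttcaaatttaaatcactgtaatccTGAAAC
crs1: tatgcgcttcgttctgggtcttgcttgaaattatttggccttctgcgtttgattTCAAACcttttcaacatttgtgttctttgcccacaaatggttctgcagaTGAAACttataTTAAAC
mug8: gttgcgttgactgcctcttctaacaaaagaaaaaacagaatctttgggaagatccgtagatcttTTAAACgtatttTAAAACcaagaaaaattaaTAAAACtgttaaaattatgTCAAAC
That of mei4 lies on the + strand of chromosome II at 1473851 to 1473970 and holds 4 hexamers, 2 of them TTAAAC. That of num1, on the + strand of chromosome II at 899593 to 899712, holds 4, and all 4 are TTAAAC. Hexamers of the other forms make up the rest: the stretch of mcp7, on the + strand of chromosome I at 578953 to 579072, holds 3 and no TTAAAC. That of crs1, on the - strand of chromosome II at 3452385 to 3452504, holds 3 with 1 TTAAAC, and that of mug8, on the + strand of chromosome I at 2446755 to 2446874, holds 4 with 1 TTAAAC.

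Over whole coding sequences, ssm4 and num1 each held 6 TTAAAC, more than any of the 881 and 474 other genes with a coding length within 20% of theirs. The 5 TTAAAC in the 903 coding bases of crs1 were matched by 0.098% of 1022 genes of like length, and the 4 of mei4 by 0.345% of 1161. The 3 of rec8, the 3 of mug8 and the 2 of mug10 were reached by 2.63%, 4.65% and 4.48% of genes of like length. At the low end, spo5 held 1, as did or exceeded 42.5% of genes of like length, and mcp7 held none in 633 coding bases. Of the 688 genes as long as mcp7, 19.6% held TTAAAC. The number of this hexamer therefore did not separate the classes: crs1, without H3K9me2, had 5, and mcp7, with it, had 0.

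**Figure D1:**
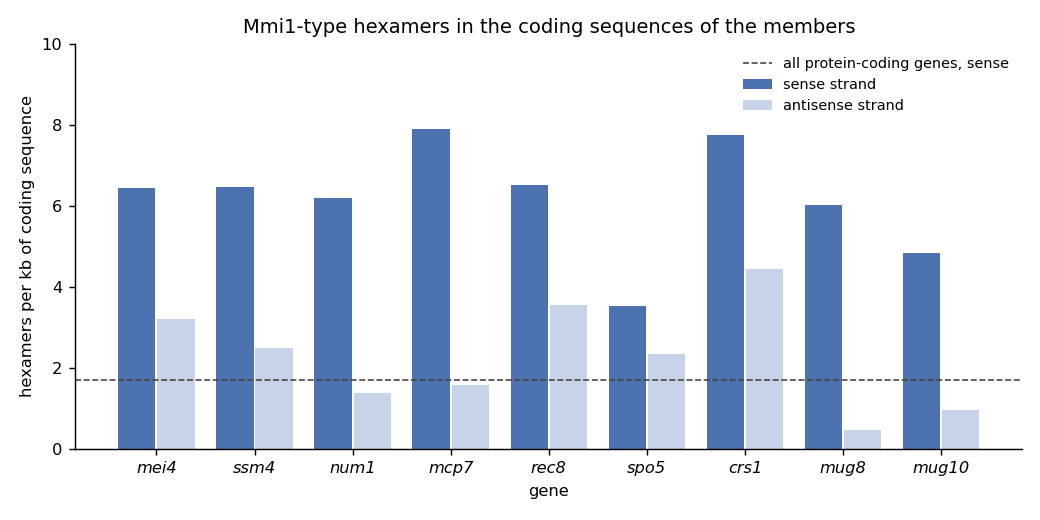
Hexamers of the form TNAAAC per kb of coding sequence (vertical axis) on the sense and antisense strands of each member (horizontal axis); the dashed line is the density on the sense strand of all 5113 protein-coding genes, 1.69 per kb. Sense bars run from 3.52 in spo5 to 7.90 in mcp7 and stand above the antisense bar in every member.

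In wild type 4 of the 9 genes carried H3K9me2, taken as a mean log2 ratio of 1 or more, and 5 did not. Over all genes measured on both H3K9me2 arrays, 314 of 4581 reached that level, which is 6.85%. The mark was strongest at mei4, which encodes the forkhead transcription factor of middle meiosis: its mean was 4.85 over 8 probes, 28.8 times the typical ratio, and it ranked 24th of 4581 genes. Next came ssm4, a dynactin-type protein of the meiotic microtubule array, at 4.04 over 7 probes, and mcp7, a partner of Meu13 in meiotic recombination, at 3.63 over 5 probes. The lowest of the class was num1, the cortical anchor of dynein for movement of the meiotic nucleus, at 2.22 over 11 probes, or 4.67 times the typical ratio. Probes inside these genes ranged from 4.12 to 5.26 at mei4, 3.15 to 4.63 at ssm4, 3.35 to 3.80 at mcp7 and 1.20 to 2.77 at num1, so every probe of the 4 genes was above 1.

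The other 5 genes lay closer to the array median, mug8 being the highest of them. The cohesin subunit gene rec8, whose protein is the meiotic kleisin, stood at 0.04, mug10 at 0.13 and spo5, an RNA-binding protein needed for meiosis and sporulation, at 0.14. The meiotic cyclin gene crs1 stood at 0.26 and mug8 at 0.64. Their probes ranged from -0.46 for the lowest probe of rec8 to 1.16 for the highest of mug8. Those of rec8, spo5 and mug10 lay on both sides of 0. Those of mug8 were all above it, from 0.24 upward, and 11.3% of genes had a higher mean than mug8. The gap at the threshold was wide: num1, just inside, had 2.22 and mug8, just outside, 0.64. It was narrower under other processing: with normexp background correction mug8 stood at 0.97, and on the ChIP signal alone spo5 stood at 0.97 and mcp7, then the lowest of the class, at 1.80. Moving the threshold to 0.5 brought in mug8 and moving it to 2 removed no gene.

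The mark at mcp7 sits on a dim extract, and its ChIP signal alone was lower than its ratio. Extract signal over mcp7 lay at -1.82 on the wild-type array and -1.62 in pds5Δ, while over mei4, ssm4 and num1 it lay between -0.08 and 0.34. On the ChIP signal alone mcp7 stood at 1.80 in wild type, against 4.76 for mei4, 3.94 for ssm4 and 2.34 for num1. All 4 genes remained above 1 on this scale and under every other processing tried.

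In pds5Δ cells the mark was lower than in wild type over ssm4, num1 and mcp7, and over mei4 it was close to wild type with arrays centred on their medians but lower with loess or equal deviation. At ssm4 the wild-type array gave 4.04 and the pds5Δ array 2.97, which differ by -1.06, and all 7 probes were lower, by 0.90 to 1.26 at the extremes. In linear terms the enrichment went from 16.4 to 7.84 times the typical ratio. At num1 it was 2.22 and 1.15, a difference of -1.07, and all 11 probes were lower. At mcp7 it was 3.63 and 2.84, a difference of -0.79, with all 5 probes lower. At mei4 it was 4.85 and 4.91, a difference of 0.06, with 2 of 8 probes lower and single probes between -0.44 and 0.44. With this centring every probe of the 3 other genes was lower, and those of mei4 lay on both sides of 0. The spread of probe differences did not set mei4 apart, with an SD of 0.14 at ssm4, 0.43 at num1, 0.41 at mcp7 and 0.30 at mei4.

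These are differences between 1 array and 1 array, with no replicate check, and the wild-type array also set the class, so none was tested. By a size rule (arrays differing by 1 or more, at least 1 of them reaching 1) ssm4 and num1 were lower, 2 of the 10 genes that met the rule downward among 4581, or 0.218%. Upward, 90 genes met it, 1.96%, and no member was among them. Over all genes the median difference was -0.01, and over the 314 genes with the mark in wild type it was also -0.01, with 159 of them lower.

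The direction at mei4 rests on how the arrays are scaled, while that of ssm4, num1 and mcp7 did not turn under any of 12 settings. The difference at mei4 was -0.02 with normexp background correction, -0.30 with loess and -1.06 when the log ratios of both arrays were given equal deviation. With equal deviation 62 genes were lower and 54 higher by the size rule, ssm4, num1, mcp7 and mei4 among the lower ones. In all 12 settings mei4 nevertheless kept more of its mark than the other 3 genes: its difference exceeded theirs by 0.58 to 1.16 on average. The ChIP signal alone gave ssm4 -0.65 and num1 -0.96, which took both below the size rule, and 500 bp added on each side did so as well.

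The members without the mark also stood a little lower in pds5Δ. Values in wild type and pds5Δ were 0.04 and -0.37 at rec8, 0.14 and 0.01 at spo5, 0.26 and 0.13 at crs1, 0.64 and 0.12 at mug8, and 0.13 and -0.35 at mug10. All probes of rec8, mug8 and mug10 were lower, 7, 8 and 5 in number. Extract over mug10 was dim and moved from -1.09 in wild type to -0.59 in pds5Δ, and on the ChIP signal alone mug10 differed by 0.03 and rec8 by -0.13. With tiles moved 300 bp to the left crs1 also turned, to 0.03. None of the 5 reached 1 on either array, so the size rule could not apply to them. Over the 9 members 8 were lower and the median difference was -0.48. Over all genes 2380 of 4581 were lower and the median difference was -0.01. Across the 12 settings, 7 to 9 members lay below the median of all genes.

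**Figure D2:**
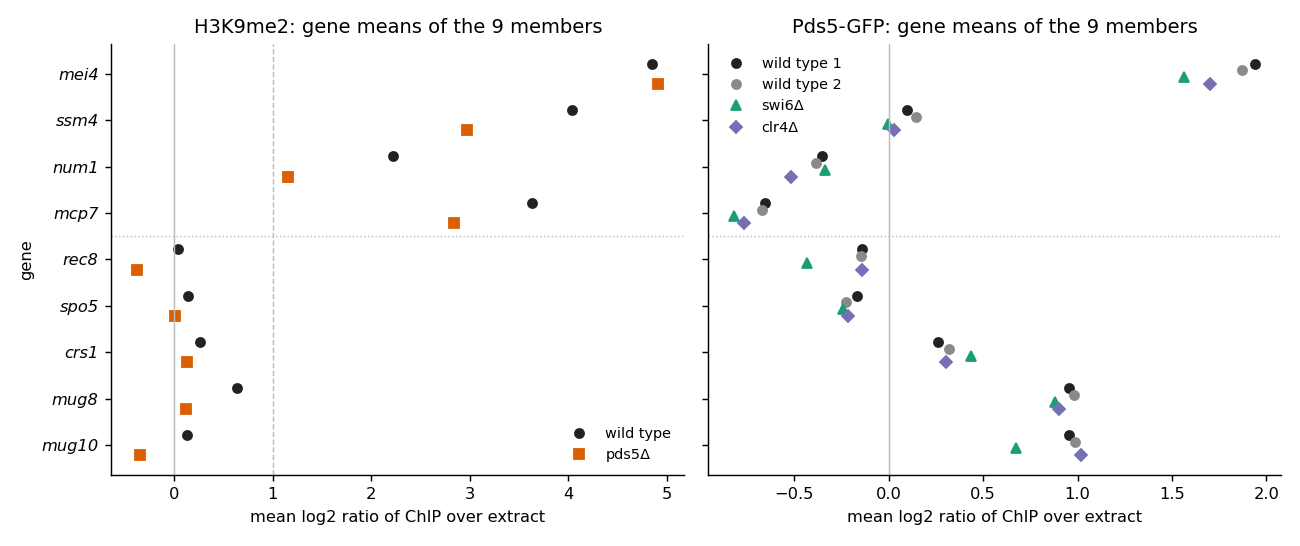
Mean log2 ratio of ChIP over extract (horizontal axis) of each member (vertical axis) for H3K9me2 on 2 arrays (left) and Pds5-GFP on 4 arrays (right); each symbol is 1 array, the dashed line marks a log2 ratio of 1 and the dotted line parts members with the mark from those without it. H3K9me2 at ssm4, num1 and mcp7 sits lower in pds5Δ while mei4, with the median centring plotted, sits at 4.85 and 4.91, and mei4 has the highest Pds5-GFP on every array.

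The islands differed in width, that of mei4 being the widest. A run was the stretch of neighbouring 300 bp tiles at 1 or more, in a running median of 3 tiles, around the gene's highest tile. At mei4 it spanned 9.6 kb in wild type, reaching the 5 kb limit of the search, and 9.9 kb when the limit was lifted, an alternative added after the data were seen. At ssm4 it spanned 4.8 kb, and at num1 and mcp7 3.9 kb each. The run of num1 covered little more than the gene, those of ssm4 and mcp7 went on past the 3′ end into the next gene, and that of mei4 took in its neighbours on both sides of a gene of 2218 bp.

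In pds5Δ the runs were narrower at 3 genes and wider at mei4. That of num1 was 2.1 kb, that of mcp7 3.0 kb and that of ssm4 4.5 kb, the last only 1 tile shorter than in wild type. That of mei4 was 11.1 kb, though on the ChIP signal alone it was 7.5 kb on both arrays. The run of mcp7 on that scale was 6.3 kb in wild type and 1.2 kb in pds5Δ, and with normexp that of num1 in pds5Δ was 0.9 kb and that of ssm4 4.8 kb on both arrays. At a threshold of 2, num1 had a run of 2.4 kb in wild type and none in pds5Δ, ssm4 went from 3.9 to 3.0 kb, mcp7 from 3.0 to 2.7 kb and mei4 from 5.1 to 6.6 kb. The wider run of mei4 came from its downstream side, where the probes from 1 to 5 kb averaged 1.08 in wild type against 1.57 in pds5Δ, while the upstream side had 1.67 and 1.61.

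Just outside the genes the mark was uneven at 2 of the 4 islands. Within 1 kb past the end of ssm4 the mean was 3.50 in wild type and 2.63 in pds5Δ, and within 1 kb before its start 1.78 and 1.26. At mcp7 the values were 3.31 and 2.58 past the end and 1.42 and 0.88 before the start. The downstream side was the higher one at both, on both arrays. At num1 both sides were low, 0.92 and 0.26 past the end and 1.01 and 0.39 before the start, and at mei4 both were high, 2.90 and 3.07 past the end and 2.86 and 2.84 before the start. From 1 to 5 kb away, both sides together, wild type had 1.38 at mei4, 0.52 at ssm4, 0.37 at mcp7 and 0.19 at num1. Around the 5 genes without the mark it had -0.38 to 0.01 over the same distance.

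Neighbouring genes shared the mark where an island crossed their span. Of 16 measured genes within 5 kb of the 4 islands, 5 had a mean of 1 or more in wild type, and of 24 within 5 kb of the other members none did. At mei4 these were cdk9, the kinase of transcription elongation, which lies on the same strand and overlaps the annotated 5′ end of mei4, at 2.45 (wild type) and 2.66 (pds5Δ). The actin gene act1, convergent with mei4 across 200 bp, had 2.51 and 2.72, and wdr8, 2595 bp upstream, had 1.60 and 1.40. At mcp7 the overlapping convergent gene ubp8, a histone deubiquitinase of the SAGA complex, had 3.12 and 2.24. At ssm4 the next gene downstream, but1, had 2.71 and 2.10. None of the 16 was lower by 1 or more. The values of but1 and ubp8 were lower in pds5Δ like those of ssm4 and mcp7, while those of cdk9 and act1 beside mei4 were not. The overlapping genes ubp8 and cdk9 share probes with mcp7 and mei4, so their means are not separate from those of the members.

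**Figure D3:**
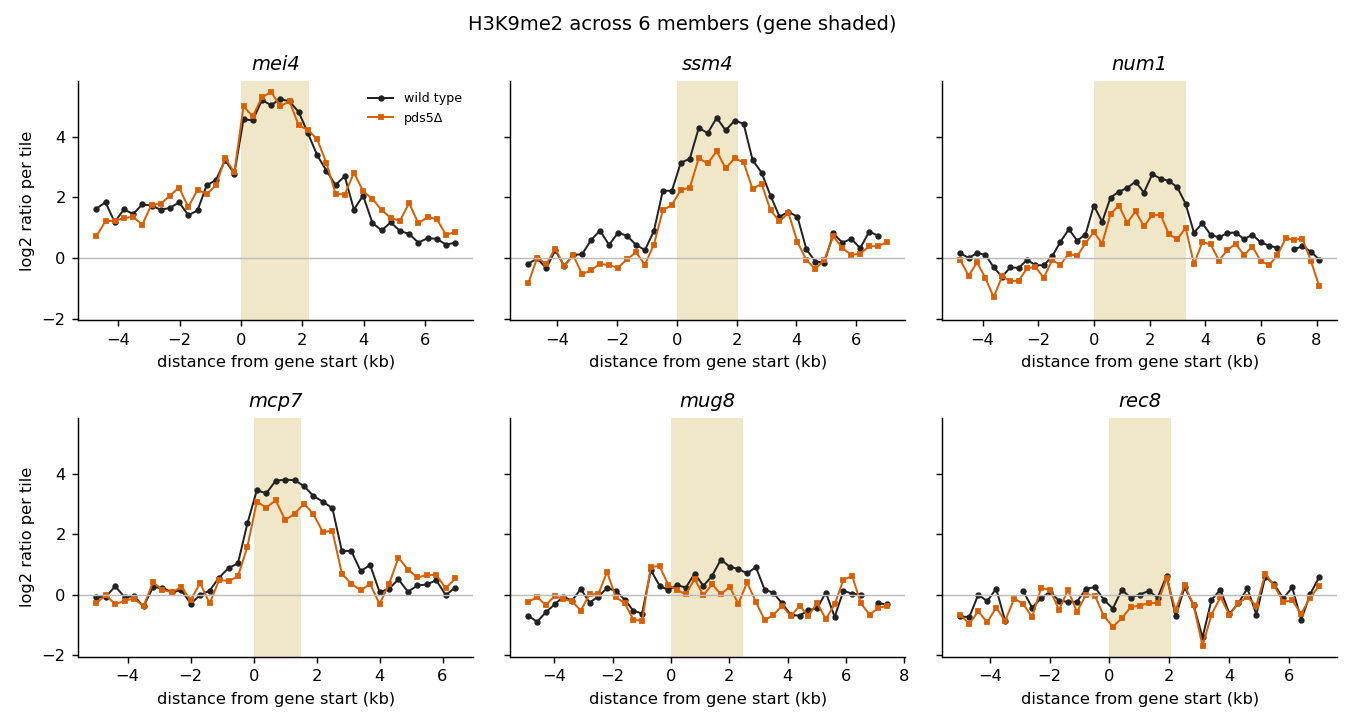
H3K9me2 per tile (log2 ratio, vertical axis) against distance from the gene start along its strand (kb, horizontal axis) at 6 members, wild type in black and pds5Δ in orange, 1 array each, with the gene span shaded. With the median centring plotted, the profiles lie close together at mei4, whose run of 9.6 kb leaves the gene on both sides. At ssm4, num1 and mcp7 the pds5Δ line runs below wild type over the gene. Over mug8 and rec8 the wild-type means are 0.64 and 0.04.

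Of the genes without an island, mug8 and mug10 had a low rise near their 3′ ends in wild type. At mug8 the highest tile inside the gene, 1708 bp from its start, stood at 1.16, and the 1 kb past its end had a mean of 0.60, against -0.22 on the pds5Δ array. At mug10 the 1 kb past its end had 0.53 and -0.20. Extract inside mug8 and mug10 was dim, at -0.94 and -1.09 in wild type and -0.89 and -0.59 in pds5Δ. On the ChIP signal alone both genes lay below the wild-type array's median, at -0.32 and -0.98. The part of the extract in the rise was not tested. Over the 1 kb past the ends of rec8, spo5 and crs1 the wild-type means were -0.27, 0.03 and -0.01. No running median of 3 tiles reached 1 inside any of the 5 genes on either array.

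Pds5-GFP did not follow the mark among the members in wild type. At mei4 the arrays gave 1.94 and 1.87 (mean 1.91 ± 0.05, SD, n = 2), and it ranked 31st of 4607 genes. At ssm4 they gave 0.10 and 0.14, at num1 -0.35 and -0.38, and at mcp7 -0.65 and -0.67. Thus mcp7, with the third strongest mark of the 9, had the lowest Pds5-GFP of the 9, and 95.2% of all genes had more. Extract over mcp7 was dim on these arrays as well, from -1.07 to -1.30, and its ChIP signal alone was lower still, at -1.73 and -1.83.

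Among the genes without the mark, mug8 (0.95 and 0.98) and mug10 (0.95 and 0.98) were high and the rest were near the median. The values were 0.26 and 0.32 at crs1, -0.14 and -0.15 at rec8, and -0.17 and -0.23 at spo5. With a wild-type SD of 0.004 to 0.05 per gene, mei4 exceeded mug8 and mug10 by far more than the spread, while mug8 and mug10 (means 0.97 and 0.97) could not be ordered. The 3 genes were among the highest 10% of all genes, whose limit was 0.81. On the ChIP signal alone only mei4 was, since extract over mug8 and mug10 was dim, at -0.73 and -0.60 for the first and -0.77 and -0.76 for the second. The 4 genes with the mark had a median of -0.12 and the 5 without it 0.29. Over all genes the median was -0.004, and over the 314 genes with the mark it was 0.34.

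**Figure D4:**
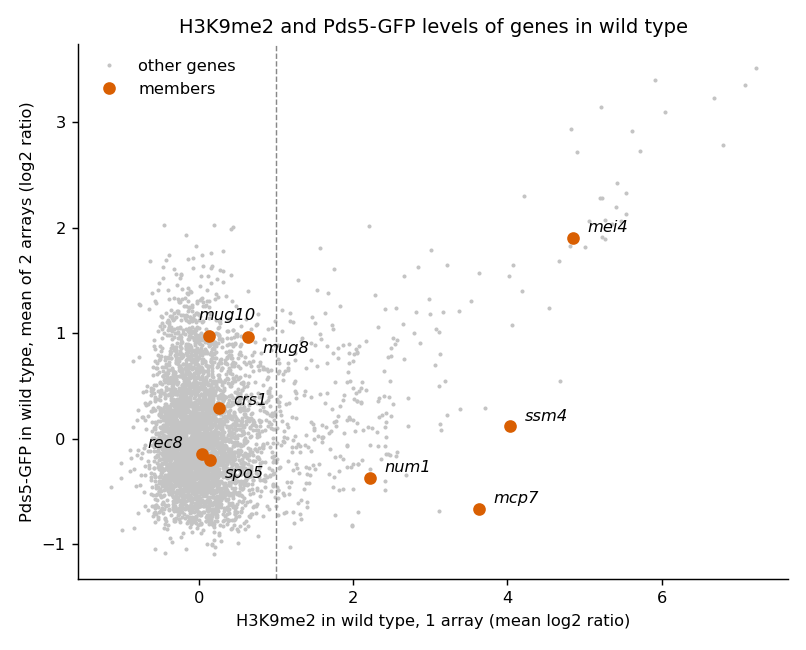
H3K9me2 in wild type (mean log2 ratio of 1 array, horizontal axis) against Pds5-GFP in wild type (mean of 2 arrays, vertical axis) for every measured gene (grey) and the 9 members (orange, named); the dashed line marks 1. Among members right of the line, mei4 lies at 1.91 for Pds5-GFP and mcp7 at -0.66.

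The shape of the Pds5-GFP signal also set mei4 apart. Its highest tile inside the gene lay 1882 bp from the start, at 2.23 on the mean of the wild-type arrays, but the place of the peak was not resolved. The first wild-type array was highest at 2182 bp (2.28), and the tile at 982 bp had 2.16 and 2.09. H3K9me2 was highest at 1282 bp, at 5.26, with 5.22 at 682 bp, so no offset between the peaks can be read. Within 1 kb past the end of mei4 the wild-type arrays had 1.28 and 1.36, within 1 kb before its start 0.93 and 0.97, and from 1 to 5 kb on both sides 0.17 and 0.16. Over that distance H3K9me2 had a mean of 1.38 in wild type, given for its place along the gene and not as an amount to compare with Pds5-GFP. These means span a slope on the downstream side. At 3382 bp from the gene start the wild-type arrays had 2.70 for H3K9me2 and 0.48 and 0.75 for Pds5-GFP. At 6982 bp they had 0.50 for H3K9me2 and -0.16 and -0.28 for Pds5-GFP. At mug8 and mug10 the signal was instead part of a broad raised stretch. From 1 to 5 kb before mug8 the arrays had 1.13 and 1.12, more than inside the gene, and meu26 on that side had 1.38 and 1.27. From 1 to 5 kb before mug10 they had 0.75 and 0.72.

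In swi6Δ cells Pds5-GFP over mei4 was 1.56, below both wild-type arrays, a difference of -0.34 (SE 0.105, limma, adjusted p = 0.0323 over 4607 genes). All 8 probes of the gene were below both wild-type arrays, but neighbouring probes share fragments and are not separate observations. It was the 1 member of 9 that passed the test, and it fell. Over all genes 154 were lower (3.34%) and 34 higher (0.738%) by the same rule. Past the end of the gene swi6Δ was also below both wild-type arrays, with 1.16 against 1.28 and 1.36 within 1 kb, and within 1 kb before the start it had 0.92 against 0.93 and 0.97. From 1 to 5 kb on both sides it had 0.20 against 0.17 and 0.16, and act1 and cdk9 differed by -0.13 and -0.01. Against the wild-type array on the same slide alone the difference was -0.31, with no test.

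At 1.56, mei4 still had the highest Pds5-GFP of the 9 members on the swi6Δ array. The call was lost on the deposited value table (adjusted p = 0.06), with the tiles moved 300 bp to the right (0.0699), with equal deviation (0.139), with loess (0.217) and on the ChIP signal alone (a difference of -0.13, adjusted p = 0.993), all by limma. The spread in each fit comes from the wild-type pair alone (1 residual degree of freedom), and a lone mutant array is taken to vary as that pair does.

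The other members did not pass in swi6Δ, and the 3 other genes with the mark differed by less than mei4. They stood at -0.005 in ssm4 (a difference of -0.13), -0.34 in num1 (0.03) and -0.82 in mcp7 (-0.16), with adjusted p from 0.579 to 0.956 by limma. One outlier probe of ssm4 was dropped on the second wild-type and the swi6Δ array, so 6 of its 7 probes were measured on all 4. The means of the first wild-type and the clr4Δ array rest on all 7, so the differences of ssm4 compare unlike sets of probes. On the deposited value table, which keeps that probe, ssm4 stood at -0.04 in wild type and differed by -0.32 (adjusted p = 0.0918 by limma), about as much as mei4 did. With normexp 5 members were called lower, and mcp7 turned to 0.98 (adjusted p = 0.0042 by limma). Among genes without the mark, mug10 was at 0.67 (-0.30, adjusted p = 0.0893 by limma), rec8 at -0.43 (-0.29, adjusted p = 0.102) and mug8 at 0.88 (-0.09, adjusted p = 0.82). All 5 probes of mug10 and 6 of 7 of rec8 were below both wild-type arrays. The remaining values were -0.24 in spo5 (-0.04) and 0.44 in crs1 (0.15), where all 4 probes were above both.

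The difference at rec8 was not limited to the gene. From 1 to 5 kb on both sides swi6Δ stood at -0.23, and the wild-type arrays at -0.004 and 0.003. Chosen after their values were seen, orc1, the origin recognition gene next to rec8, differed by -0.31 (adjusted p = 0.072), lam1 by -0.32 (0.061) and cyb502 by -0.33 (0.046, the 1 neighbour of these members that passed, by limma). Extract over rec8 moved as well, from 0.20 and -0.28 in wild type to -0.41 in swi6Δ, and its part in the result was not tested. On the ChIP signal alone rec8 differed by -0.67, and it passed the test there. The wild-type arrays lay far apart on that scale, at 0.05 and -0.46, beside -0.87 in swi6Δ. Near num1 the checkpoint kinase gene rad3, 2821 bp downstream, was higher in swi6Δ, at 1.21 against 0.72 and 0.96 (0.37, adjusted p = 0.018 by limma), the 1 of 16 genes beside islands to pass.

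In clr4Δ cells no member passed the test, and Pds5-GFP kept its high level at mei4. The value there was 1.70, a difference of -0.20 (adjusted p = 0.364 by limma), with all 8 probes below both wild-type arrays. None of the 9 had an unadjusted p under 0.05, and that of mei4 was 0.0544, while 652 of all 4607 genes did. In swi6Δ 3 of the 9 members and 645 of all genes did. Over all genes 118 were lower (2.56%) and 73 higher (1.58%). The levels were 0.03 in ssm4, -0.52 in num1 and -0.77 in mcp7, differences of -0.09, -0.15 and -0.10. They were -0.14 in rec8, -0.22 in spo5, 0.30 in crs1, 0.90 in mug8 and 1.02 in mug10, which differed by -0.07 to 0.05.

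In swi6Δ 3 of the 4 genes with the mark, 4 of the 5 without it and 2218 of all 4607 genes were lower than the wild-type mean. In clr4Δ the counts were 4 of 4, 3 of 5 and 1847 of 4607, with ssm4 turning to 0.07 on the deposited value table. Both mutants are set against the same wild-type arrays. No contrast between swi6Δ and clr4Δ was tested, each having 1 array. One gene beside the members passed in clr4Δ: SPAC32A11.02C, convergent with mug8 across 125 bp, was at 1.14 against 0.71 and 0.80 (0.39, adjusted p = 0.011 by limma), named after its value was seen.

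**Figure D5:**
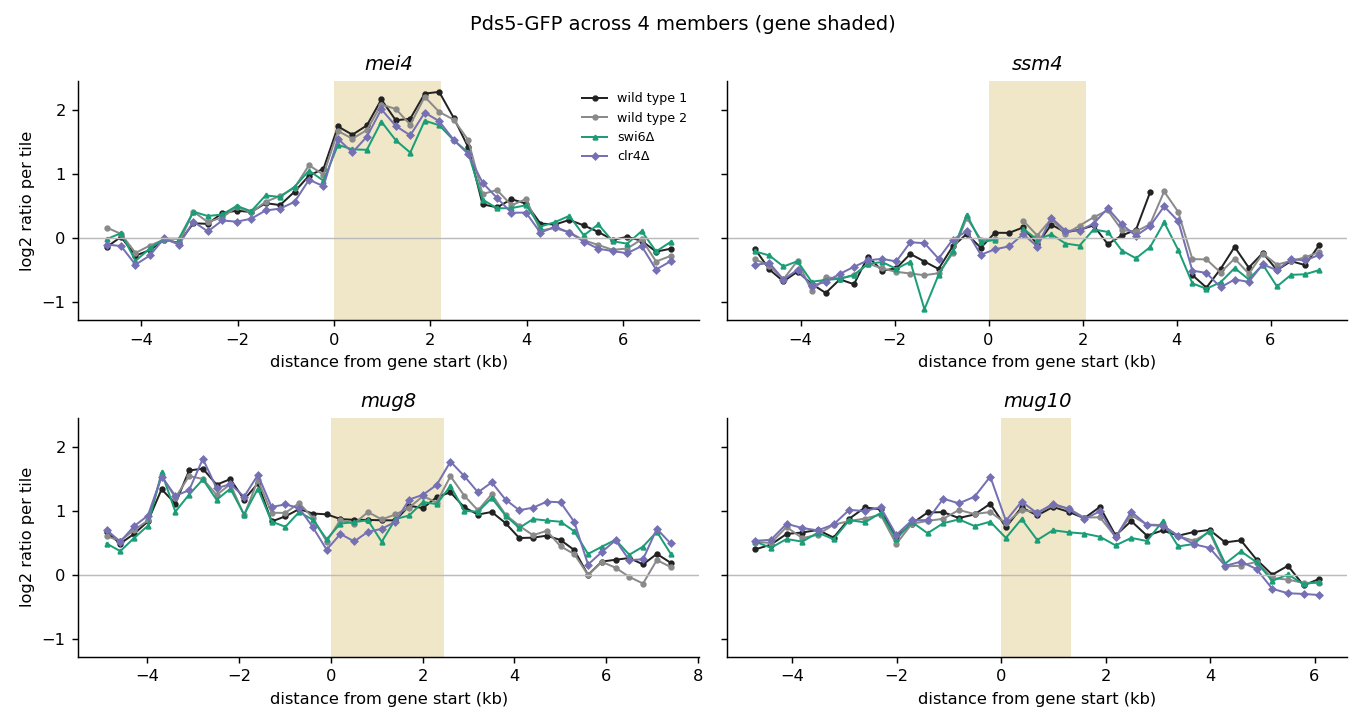
Pds5-GFP per tile (log2 ratio, vertical axis) against distance from the gene start along its strand (kb, horizontal axis) at 4 members for wild type (black and grey lines, 1 per array), swi6Δ (green) and clr4Δ (purple), with the gene span shaded. At mei4 the green line lies below both wild-type lines at all 8 probes inside the gene; mug8 and mug10 lie within broad raised stretches, and ssm4 stays near 0.

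Across the 6 arrays the genes most like each island, by Euclidean distance over gene means and outside 10 kb of it, were as follows. The nearest to mei4 was emc5, at a distance of 0.57, with 5.01 (wild type) and 4.80 (pds5Δ) for H3K9me2 and 1.69 and 1.94 for Pds5-GFP in wild type, and then per1 (1.59) and SPAC977.18 (1.77). In SPAC977.18 the Pds5-GFP level went from 2.37 and 2.19 in wild type to 0.57 in swi6Δ and 0.63 in clr4Δ, where mei4 kept 1.56 and 1.70. The nearest to ssm4 were cbp3 (0.57), sdh1 (0.87) and mid1 (0.99), and to num1 SPAC1F12.04C (0.38), lsg1 (0.48) and avl9 (0.49). For mcp7 they were SPCC4B3.13 (1.28), emc3 (1.33) and rpl1002 (1.58), so no gene lay as close to mcp7 as others did to ssm4 or num1.

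Few genes of the pathway itself met a rule. Of 14 Mmi1 elimination factors, 13 were measured, none had the mark in wild type (median -0.07), and none passed limma in either mutant. None reached 1 on either H3K9me2 array, so the size rule could not apply to them. Their largest differences in pds5Δ were -1.01 at rhn1 (0.72 in wild type, -0.29 in pds5Δ) and, upward, 0.53 at pab2 (0.17 and 0.70). An unadjusted p under 0.05 was reached by 2 of the 13 in each mutant, beside 645 (swi6Δ) and 652 (clr4Δ) of all 4607 genes. Of 16 heterochromatin factors none had the mark in wild type, though tas3 stood at 1.44 in pds5Δ against 0.79 in wild type. The RNA-dependent RNA polymerase gene rdp1 had higher Pds5-GFP in swi6Δ (1.52 against 0.88 and 1.28, adjusted p = 0.0017) and in clr4Δ (1.45, adjusted p = 0.018), and the chromodomain gene chp2 was higher in clr4Δ (0.33, adjusted p = 0.04), all by limma. The swi6 gene was lower by 0.44 on its own deletion array (adjusted p = 0.0018 by limma), where its coding DNA is missing. By the same test 0.738% of all genes were higher and 3.34% lower in swi6Δ, and 1.58% were higher in clr4Δ.

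Of 30 other meiosis and sporulation genes 25 were measured, and 5 of them had the mark in wild type, rec6 highest at 3.20. Over all genes 6.85% had it. In pds5Δ the spore-coat gene isp3 was higher by the size rule, at 2.63 against 0.99, as were 1.96% of all genes. In swi6Δ 3 of the 25 were lower by limma: isp3 (-0.79), the recombination gene rec6 (-0.54) and the transcription factor gene rep1 (-0.46). Over all genes 3.34% were. In clr4Δ meu1 was lower (-0.37, adjusted p = 0.018) and isp3 higher (0.34, adjusted p = 0.034), by limma. Of all genes 2.56% were lower and 1.58% higher there. The wild-type arrays lay far apart at isp3, at 0.47 and -0.01, beside -0.56 in swi6Δ and 0.57 in clr4Δ. The clr4Δ value was thus close to that of the first wild-type array. The median differences of the 25 were 0.03 in swi6Δ and 0.05 in clr4Δ, beside 0.01 and 0.03 over all genes.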

How the data were processed

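Per the file headers, the processed Cy5 (ChIP) and Cy3 (whole-cell extract) values are intensities made with Agilent Feature Extraction 12.0.3.1, background-subtracted and scaled by linear dye factors. Uncorrected median spot and local background intensities, per the file headers, served 1 alternative. The LogRatio column is a log10 ratio per the file headers, and the deposited value table holds log2 ratios, which at 41243 to 41250 of 41251 positions lay within 0.01 of the scanner ratio. Its column medians were -0.15, -0.21, -0.09, -0.09, -0.07 and -0.05 (H3K9me2 wild type and pds5Δ, then Pds5-GFP wild type 1 and 2, swi6Δ and clr4Δ), so it is not centred, and like the scanner ratio it runs as ChIP over extract. Flag columns, per the file headers, mark control and outlier spots.

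Probe values were log2 of Cy5 over Cy3 minus the array median, without control spots and spots marked as outliers (1306 on the wild-type H3K9me2 array, 2 to 111 on the others). No spot was saturated, and 98.4% to 99.98% were well above background. No source used here names the build of the array. Genes of ASM294v3 were placed on the 300 bp tiles by a fixed shift per chromosome block, and tile base composition and extract signal within 60 kb of each member matched best at offsets of -50 to 150 bp from that placement. Gene values are means over at least 3 probes.

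The Pds5-GFP test used R 4.3.3 and the package limma 3.58.1 (lmFit, then eBayes, 3 groups, 1 residual degree of freedom, Benjamini-Hochberg over 4607 genes, threshold 0.05, two-sided). The moderated fit pooled the spread, so 1 standard error applied to every gene. H3K9me2, with 1 array per genotype, had no test. Alternatives changed background correction, normalization, channel, probe filters, gene span, tile placement, summary and thresholds. Members and gene lists were chosen with earlier results of these data known. The genes named were the 9 members, the 3 genes most like each island, neighbours a result turns on and, per list, at most 4 past a rule. No member probe carries a shared name suffix.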

Additional observations from a re-analysis of the deposited data

How the results depend on the processing

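The 4 genes with H3K9me2 in wild type stayed the same in number under 11 alternatives, and ssm4, num1 and mcp7 were lower in pds5Δ under each of them. Members lower by the size rule numbered 2, with 4 at equal deviation, 3 with normexp or at a difference of 0.5, 1 with tiles moved 300 bp to the left, and 0 on the ChIP signal alone or with 500 bp added on each side. Genes lower by that rule (10) became 18 with normexp, 62 at equal deviation, 1 on the ChIP signal alone, 5 with 500 bp added and 52 at a difference of 0.5, and genes higher (90) became 54 at equal deviation, 59 on the ChIP signal alone and 237 at a difference of 0.5. Islands narrower in pds5Δ numbered 3, or 2 with normexp, and members in the highest 10% for Pds5-GFP numbered 3, or 1 on the ChIP signal alone. In swi6Δ members lower (1) became 5 with normexp and 0 with loess, equal deviation, the deposited value table or tiles moved 300 bp to the right, and on the ChIP signal alone the 1 was rec8 and not mei4. With normexp 1 member was higher, mcp7, which reversed to 0.98. Genes lower (154) became 1154 with normexp, 68 with loess and 47 on the ChIP signal alone, and genes higher (34) became 358, 2 and 15, 67 at equal deviation and 21 with medians. In clr4Δ genes lower (118) became 35, 60 and 56 with normexp, loess and the ChIP signal alone, and genes higher (73) became 0, 19 and 19, 40 at equal deviation, 42 on the deposited table and 43 with medians. The causes were not tested.

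Without either wild-type array the difference of mei4 ran from -0.38 to -0.31 in swi6Δ and from -0.24 to -0.17 in clr4Δ. No limma test is possible then, with no residual degrees of freedom. The same-slide comparison could not be made for clr4Δ. No paired analysis was possible because the groups compared share 1 replicate number, and a block needs at least 2. With 1 array per genotype, a difference between arrays and one between genotypes cannot be told apart.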
